A study of Arabidopsis thaliana with 12 samples.

Results

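The genes described here are 81 Arabidopsis thaliana genes whose transcript level lay lower in root callus than in the root explant, and higher in cotyledon and petal callus than in those explants. They were chosen by their measured values from 9694 genes. A gene was a member when its mean log2 ratio was -1 or less in root (at least a halving) and 1 or more in both cotyledon and petal (at least a doubling). Of 84 genes that met these thresholds, OSM34, EXPA15 and UGT72E2 were left out by name, since the choice excluded OSM34 and the expansin, PRA1, UGT, TBL and XTH families. The 3 organ ratios of the members are therefore descriptions, and no test is given for them.

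All samples were of the Landsberg erecta (Ler) ecotype. Pieces of root, cotyledon or petal were cut from normally grown plants, and RNA was taken either at once (day 0) or once callus had grown for 10 days on callus-inducing medium rich in auxin. Each of 12 arrays with 2 colours compared callus RNA with the day-0 RNA of the same organ, with 4 arrays of biologically independent samples per organ. The dyes were swapped between replicates, with callus in Cy5 for replicates 1 and 3 and in Cy3 for replicates 2 and 4. The labels give no plant age. Values are log2 ratios, read here as callus over explant. The labels do not state that direction. It is likely, since callus is the first channel of every sample, and all signs would turn under the opposite reading. Arrays of opposite dye correlate above 0, so ratios run the same way on the arrays of an organ, but this holds under either reading.

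Callus on auxin-rich medium is a proliferating tissue, and in Arabidopsis its formation uses parts of the programme that builds lateral roots, the subject named in the title of the study. Many genes of mature roots encode secreted or vacuolar proteins of chemical defence, such as lectins and the beta-glucosidases that release toxic or antimicrobial compounds from stored glucosides. A ratio compares callus with its own starting organ and gives the level in neither tissue. In whole tissue, fewer cells of a type and less RNA per cell cannot be told apart.

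Ratios stopped at a 100-fold limit, where they only bound a change and were treated as missing. From 1.99% to 28.2% of probes per array were at a limit. Of 972 member values, 5 were at a limit, in 5 members, and 76 members were measured on all 12 arrays. The median of genes tested lay between 0.05 and 0.32 on single arrays, and opposite-dye arrays of an organ correlated at 0.80 to 0.86 (root), 0.86 to 0.91 (cotyledon) and 0.84 to 0.91 (petal) over measured probes. The 4 arrays per organ limit the precision of every mean, given below as mean ± SD (n = 4 arrays unless stated).

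The members had a median ratio of -1.63 in root, 1.83 in cotyledon and 2.36 in petal, beside 0.18, 0.13 and 0.18 over all genes tested. Root means went down to -3.95, cotyledon means from 1.01 to 4.74 and petal means from 1.08 to 5.04. Their median SD over arrays was 0.44 in root, 0.50 in cotyledon and 0.52 in petal, against 0.28, 0.25 and 0.35 over all genes. In 78 members every root array lay below every cotyledon and petal array, an arrangement found in 16.5% of all genes tested, and one that the choice of members favours. In 66 members all measured root ratios were below 0 and all aerial ratios above 0. The choice of members favours this split too, and its share over all genes was not counted. Of 1293 genes at -1 or less in root, 498 were also at -1 or less in both aerial calli. Of 1725 genes at 1 or more in both aerial calli, 631 were at 1 or more in root.

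**Figure D1:**
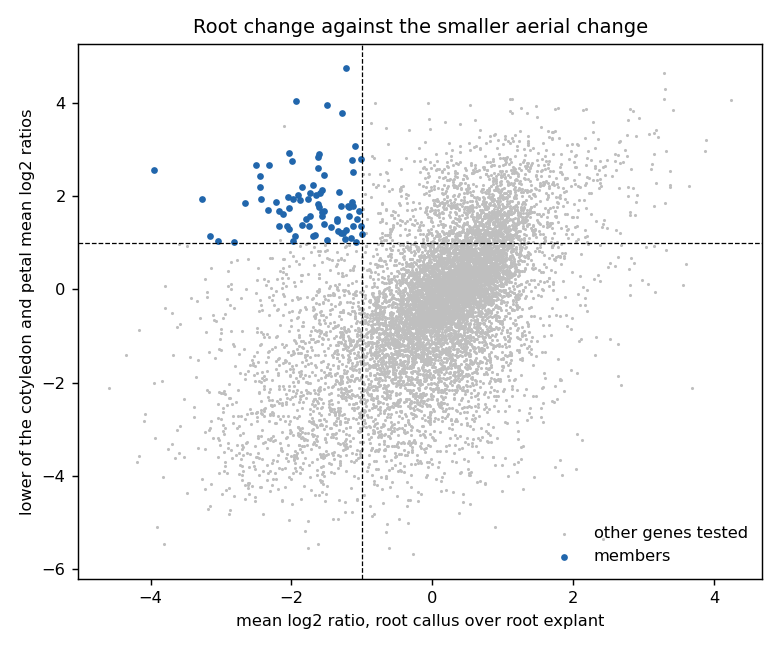
Each point is a gene, with the mean log2 ratio in root on the x axis and the lower of the cotyledon and petal means on the y axis, and dashed lines at the thresholds of -1 and 1. The 81 members (blue) fill the upper left corner, which the thresholds cut from a cloud of 9694 genes (grey) that mostly runs from lower left to upper right.

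Of the members, 16 had a gene symbol in RefSeq (assembly TAIR10.1) and 65 had only a locus code. Those with a symbol fell mainly into lectins and glycosidases, enzymes of small-molecule and protein modification, and regulators of protein turnover and sorting.

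Lectins supplied 3 of the 16 members with a symbol. JAL22 (AT2G39310), JAL31 (AT3G16430, also PBPII) and JAL34 (AT3G16460) encode jacalin-related lectins, which bind carbohydrate. For JAL22, replicates 1 to 4 gave -2.30, -1.91, -2.37 and -3.21 in root and 3.50, 2.68, 1.74 and 1.84 in cotyledon callus, and its petal arrays lay between 3.50 and 5.36. Its means were -2.45 ± 0.55, 2.44 ± 0.82 and 4.59 ± 0.81, so the transcript was 5.45-fold lower in root callus and 5.43-fold and 24-fold higher in cotyledon and petal callus. All root arrays lay below -1.9 and all aerial arrays above 1.7, and the highest cotyledon array lay just above the lowest petal array. JAL34 gave -1.71, -1.81, -1.39 and -1.33 in root, 2.70, 2.44, 1.76 and 1.60 in cotyledon and 3.81, 3.01, 3.98 and 3.11 in petal callus. JAL31 gave -0.79, -1.65, -1.01 and -1.08 in root, 3.31, 2.55, 2.57 and 1.66 in cotyledon and 5.87, 4.01, 3.13 and 3.22 in petal callus, with 1 petal array at 5.87 well above the other 3. JAL31 and JAL34 lie 3 protein-coding genes apart on chromosome 3, and the lectins are close relatives, so one probe may also bind transcripts of another.

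The beta-glucosidase BGLU21 (AT1G66270), an enzyme of root ER bodies, gave -0.61, -2.54, -0.44 and -2.91 in root, 6.36, 1.75, 5.05 and 1.22 in cotyledon and 3.49, 2.93 and 2.08 in petal callus. The petal values are replicates 2 to 4, because replicate 1 was at the upper limit, so that the petal mean of 2.83 ± 0.71 (n = 3) leaves out its highest array. BGLU21 ratios split by dye in root and cotyledon. Root arrays with callus in Cy5 were at -0.61 and -0.44 and those with callus in Cy3 at -2.54 and -2.91, so the root mean is at -1 or less through the Cy3 arrays. Cotyledon arrays with callus in Cy5 were at 6.36 and 5.05 and those with callus in Cy3 at 1.75 and 1.22. BGLU24 (AT5G28510), of the same family, gave -1.22, -1.25, -1.25 and -0.93 in root, 3.09, 2.30, 1.48 and 1.99 in cotyledon and 0.05, 2.41, -0.28 and 2.27 in petal callus. Its petal arrays split, with 0.05 and -0.28 where callus carried Cy5 and 2.41 and 2.27 where it carried Cy3, the reverse of BGLU21.

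In the mustard family, ER bodies are compartments of the endoplasmic reticulum that store beta-glucosidases, above all PYK10 in roots. NAI1 is a transcription factor needed to form them and NAI2 a structural protein of the bodies. After cell damage PYK10 and its relatives BGLU21 and BGLU22 form complexes with jacalin-related lectins. Because 4 members belong to this system, 11 of its genes were listed after the members' names had been seen, and they are described without a test. Of these, 8 had a tested probe, and PYK10, GLL22 and JAL33 did not.

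The 4 that are members have the pattern by choice. The list was drawn from the members' names, so the other 4, which missed a threshold, are no independent support for it. All of the other 4 had cotyledon and petal means above 0, and 3 of 4 had a root mean below 0. Their root arrays lay below all their aerial arrays, as in 16.5% of all genes tested. The share of all genes with such signs was not counted. Medians over all genes were 0.18 in root, 0.13 in cotyledon and 0.18 in petal. NAI1 (AT2G22770) gave -0.75, -0.46, -1.08 and -0.23 in root, 3.79, 3.47, 2.54 and 2.68 in cotyledon and 2.97, 3.31, 3.38 and 3.14 in petal callus, with a root mean of -0.63 ± 0.37. Its cotyledon mean of 3.12 ± 0.60 lay above those of JAL22, JAL31 and JAL34 and its petal mean of 3.20 ± 0.18 below them. NAI2 (AT3G15950) stood at -0.58 ± 0.38, 2.15 ± 0.68 and 2.84 ± 0.62 in root, cotyledon and petal. JAL23 (AT2G39330) was at -1.13 ± 0.39 in root but only 0.47 ± 0.23 and 0.76 ± 0.33 in cotyledon and petal. BGLU22 (AT1G66280), the nearest relative of BGLU21, was the exception in root at 0.94 ± 0.70, with all 4 root arrays above 0, and stood at 3.21 ± 0.86 and 4.01 ± 1.01 in the aerial calli.

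**Figure D2:**
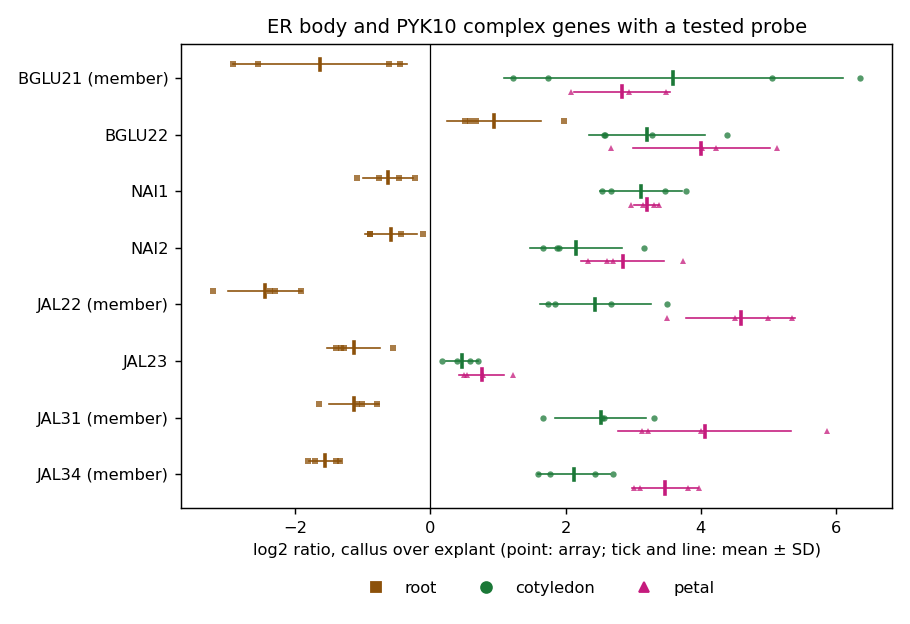
Log2 ratios of callus over explant (x axis) for the 8 tested genes of the ER body and PYK10 complex list, with root as brown squares, cotyledon as green circles and petal as pink triangles, 1 point per array, a tick at the mean and a line of ± SD. Root points lie left of the aerial points in every gene, and BGLU22 is the one gene with its root arrays above 0.

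Enzymes acting on small molecules made up the next group. GSTU22 (AT1G78340), a tau-class glutathione transferase of detoxification, gave -1.35, -2.70, -2.20 and -1.88 in root, 0.37, 1.74, 1.31 and 1.76 in cotyledon and 3.92, 2.91, 3.22 and 2.84 in petal callus. Its petal arrays all lay above its cotyledon arrays. CCR2 (AT1G80820), a cinnamoyl-CoA reductase linked to lignin made under attack, gave -0.51, -1.21, -0.69 and -1.61 in root, 0.97, 0.83, 1.43 and 1.55 in cotyledon and 2.18, 1.92, 1.84 and 1.11 in petal callus, and was the member nearest to the root threshold. PXMT1 (AT1G66700), of the SABATH methyltransferase family, had means of -1.88 ± 0.36, 1.92 ± 0.41 and 2.04 ± 0.27. Its root mean rests on 3 arrays, since replicate 2 was at the lower limit, on the same side as the others.

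TRI (AT2G29330), named as a tropinone reductase, gave -2.75, -1.93, -1.41 and -2.41 in root, 1.95, 1.49, 1.80 and 1.20 in cotyledon and 2.22, 2.37, 2.42 and 2.16 in petal callus. BAT1 (AT4G31910), an acyltransferase that lowers active brassinosteroid, the growth-promoting plant steroid, gave -1.59, -1.46, -1.69 and -1.54 in root callus. Its cotyledon arrays lay between 1.24 and 2.15 and its petal arrays between 2.45 and 3.00. Its root arrays were the tightest of the named members, with an SD of 0.09. CXE18 (AT5G23530), a carboxylesterase-family enzyme, had means of -1.18 ± 0.43, 1.73 ± 0.53 and 1.58 ± 0.26 in the same order of organs. ATPMEPCRB (AT4G02330, also PME41), a pectin methylesterase of the cell wall, stood at -1.22 ± 0.42, 1.28 ± 0.39 and 2.14 ± 0.29, and its root arrays ran from -1.81 to -0.88.

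The remaining genes with a symbol act on proteins. PUB23 (AT2G35930), a U-box ubiquitin ligase that damps immune signalling, gave -1.90, -2.50, -2.23 and -2.27 in root, 2.52, 1.84, 2.44 and 2.44 in cotyledon and 2.56, -0.46, 3.24 and 2.13 in petal callus. One petal array, replicate 2, lay below 0, and the root arrays stayed lower than all aerial arrays. MSRB9 (AT4G21850), which repairs oxidised methionine in proteins, gave -2.05, -2.46, -1.59 and -2.58 in root, 1.53, 1.38, 1.99 and 1.80 in cotyledon and 3.25, 2.12, 2.71 and 2.06 in petal callus. VPS2.2 (AT5G44560), a subunit related to the ESCRT machinery that sorts membrane proteins for breakdown, had means of -1.54 ± 0.22, 2.46 ± 0.49 and 2.76 ± 0.26. PRN (AT3G59220), a pirin that binds the G-protein alpha subunit, gave -0.83, -1.69, -1.36 and -1.46 in root, 1.59, 0.11, 1.80 and 1.49 in cotyledon and 1.83, 0.44, 1.64 and 1.75 in petal callus, and its lowest aerial arrays were replicate 2 of cotyledon at 0.11 and of petal at 0.44.

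Relatives of these members, listed after the members were known, did not all share the pattern. PUB22 (AT3G52450), the closest relative of PUB23, stood at -2.12 ± 0.15, 0.46 ± 1.17 and 2.55 ± 0.70 in root, cotyledon and petal, with cotyledon replicates 1 and 2 at -0.68 and -0.36 and replicates 3 and 4 at 1.16 and 1.74. PUB24 (AT3G11840) stood at -2.41 ± 0.34, 0.60 ± 0.82 and -1.91 ± 0.43, below 0 in petal. MSRB8 (AT4G21840) was at -2.27 ± 0.69, 0.68 ± 0.85 and 1.45 ± 0.73 and MSRB5 (AT4G04830) at -1.97 ± 0.60, -1.08 ± 0.64 and 1.97 ± 0.58. Among tau-class glutathione transferases, GSTU20 (AT1G78370) was at -0.87 ± 0.82, -3.45 ± 0.30 and -0.07 ± 0.38, and GSTU23 (AT1G78320) was at -2.49 ± 0.53 and -2.64 ± 0.43 in root and cotyledon callus. Its petal mean was -1.55 ± 0.88 (n = 3). All of these relatives had a root mean below 0, and they differed in the aerial calli. They are a selection rather than whole families, and the share of all genes with a root mean below 0 was not counted. Their root means therefore show no trait of the families.

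**Figure D3:**
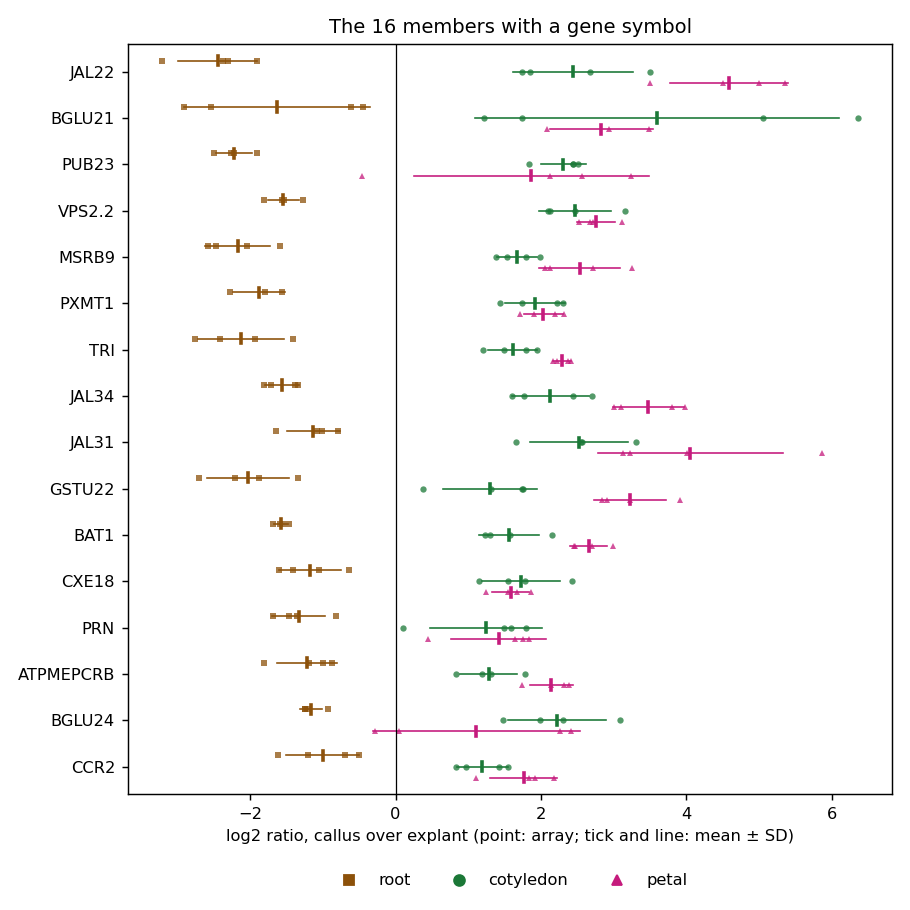
Log2 ratios of callus over explant (x axis) for the 16 members with a gene symbol, ordered by the gap between root and the lower aerial mean, with root as brown squares, cotyledon as green circles and petal as pink triangles, 1 point per array, a tick at the mean and a line of ± SD. All root points lie left of 0, and the few aerial points left of 0 are a petal array of PUB23 and a petal array of BGLU24.

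Another 3 members without a RefSeq symbol carry a name among its synonyms. AT1G43040 (SAUR58, of the small auxin-upregulated RNA family) gave -1.54, -2.22, -1.99 and -1.63 in root, 1.51, 1.75, 2.36 and 3.17 in cotyledon and 2.98, 3.02, 1.81 and 2.77 in petal callus. AT3G23090 (WDL3, of a family that binds microtubules) had means of -1.44 ± 0.22, 2.04 ± 0.46 and 1.35 ± 1.17, with petal replicate 4 at -0.41 apart from the other petal arrays. AT5G48570 (ROF2 or FKBP65, a heat-induced peptidyl-prolyl isomerase) gave -0.87, 0.02, -0.79 and -4.80 in root, 0.64, 0.32, 2.95 and 3.16 in cotyledon and 4.03, 3.23, 1.97 and -0.22 in petal callus. For ROF2 the organs overlapped: the root mean rests on replicate 4 at -4.80, and petal replicate 4 was at -0.22.

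The widest separation belonged to genes known here only by locus. AT1G18980 gave -3.42, -4.02, -3.64 and -4.72 in root, 2.84, 2.53, 2.56 and 2.31 in cotyledon and 3.20, 3.40, 3.76 and 2.33 in petal callus, so its transcript was 15.4-fold lower in root callus and 5.91-fold and 9.03-fold higher in cotyledon and petal callus. AT1G66800 had means of -3.27 ± 0.50, 1.98 ± 0.23 and 1.95 ± 0.65. These genes had the lowest root means of all members, and their cotyledon arrays were tight. AT2G38380 had the highest aerial means, at 4.74 ± 0.86 and 5.04 ± 0.75, or 26.8-fold and 33-fold. Its root arrays were uneven, at -0.63, -1.16, -0.04 and -3.05, so replicate 3 was hardly below 0.

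AT5G35940 gave -2.84, -1.96, -1.39 and -1.54 in root, 5.50, 3.87, 3.83 and 3.78 in cotyledon and 5.24, 4.58, 2.86 and 3.50 in petal callus. AT1G19530 had means of -1.49 ± 0.79, 3.95 ± 0.68 and 4.39 ± 0.78 and AT1G22440 of -1.28 ± 0.16, 3.79 ± 0.57 and 4.30 ± 0.65, again with aerial ratios around 4 and a smaller root change. AT2G18980 was at -2.50 ± 0.45, 2.67 ± 0.33 and 3.34 ± 0.56 and AT5G53110 at -2.44 ± 0.42, 2.19 ± 0.44 and 2.67 ± 0.28. AT5G38940 gave -2.73, -2.69, -2.38 and -0.31 in root, 4.48, 3.53, 3.57 and 3.19 in cotyledon and 2.44, 2.32, 3.74 and 3.23 in petal callus, with root replicate 4 near 0. AT3G47210 stood at -1.99 ± 0.41, 2.75 ± 1.40 and 3.30 ± 0.64, where 1 cotyledon array, replicate 3 at 4.81, lay far above the other 3, and AT5G47980 stood at -2.32 ± 0.97, 2.68 ± 0.55 and 3.27 ± 0.51. JAL22 completes the 12 members with the largest gap, which ran from 4.63 to 6.51 on the log2 scale.

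**Figure D4:**
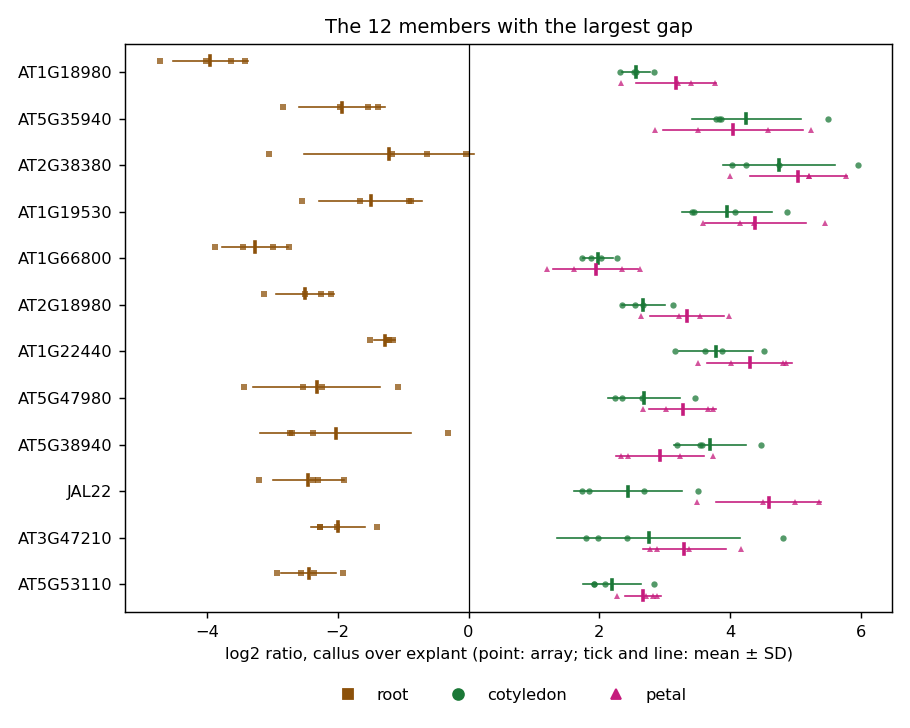
Log2 ratios of callus over explant (x axis) for the 12 members with the largest gap between the root mean and the lower aerial mean, with root as brown squares, cotyledon as green circles and petal as pink triangles, 1 point per array, a tick at the mean and a line of ± SD. Every root point lies left of 0 and every aerial point right of 1, with gaps from 6.51 (AT1G18980) to 4.63 (AT5G53110).

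Some members lay close together in the genome. In 5 pairs, at most 5 protein-coding genes separated the members in the RefSeq order. AT3G47200 and AT3G47210 are direct neighbours, with means of -1.61 ± 0.41, 2.91 ± 0.55 and 3.72 ± 0.46 and -1.99 ± 0.41, 2.75 ± 1.40 and 3.30 ± 0.64. AT4G12490 and AT4G12500, with 1 gene between them, were at -2.03 ± 0.55, 1.79 ± 0.20 and 1.76 ± 0.40 and -2.43 ± 0.44, 1.95 ± 0.53 and 1.95 ± 0.17, much alike in every organ. AT5G38900 and AT5G38940 have 3 genes between them, as have JAL31 and JAL34, and AT5G47950 and AT5G47980 have 2. Of the 9 genes lying between such members, only AT5G47970 was tested, and its means were 0.70, 0.81 and 1.71. The members were spread over the 5 chromosomes as 15, 17, 16, 9 and 24 genes. Pairs and chromosome counts were not made over all genes tested, so neither can be read as a trait of the members. Whether probes of paired members bind each other's transcripts was not tested.

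Values at the thresholds show how narrow the boundary was. Just inside lay CCR2, whose root mean rounds to the threshold itself, AT1G24130 at -1.01 ± 0.63 and AT5G48110 at -1.01 ± 1.24, and for AT5G48110 root replicate 3 was at 0.77. Just outside lay AT3G62280 at 1.00 ± 0.21 in cotyledon, under 1 before rounding, AT3G25930 at 0.98 ± 0.66 in petal and AT3G50300 at -0.98 ± 0.40 in root. In root, AT5G40900 went against its description, with ratios of -5.15, 0.60 and 1.28 and replicate 1 at the upper limit. Its root mean of -1.09 ± 3.54 (n = 3) rests on replicate 2. In AT2G02680 petal replicate 2 at -1.61 lay among its root arrays. AT5G09480 had cotyledon ratios of 2.17, 4.50 and -0.62, and replicate 2 at the lower limit. The 47 members outside the naming rule had root means from -3.16 to -1.04, cotyledon means from 1.02 to 3.07 and petal means from 1.08 to 3.72.

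The choice of members bounds the cotyledon and petal means from below and does not fix which is higher, so this difference was tested (limma over all 12 arrays, with a dye term, Benjamini-Hochberg adjustment over 9694 genes). Of 81 members, 22 passed, or 27.2%, beside 49.5% of all genes. Higher in petal were 21 members (25.9%, beside 30.8% of all genes), and lower in petal was 1 (1.23%, beside 18.8%). The median difference of petal minus cotyledon was 0.34 over members and 0.18 over all genes. The thresholds used the same cotyledon and petal means, so the members' shares are partly set by the choice. Members also had larger median SDs, at 0.50 in cotyledon and 0.52 in petal against 0.25 and 0.35. The shares therefore cannot be read as a trait of the members.

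AT1G04040 differed most between petal and cotyledon. It gave -1.85, -0.93, -1.29 and -1.89 in root, -0.09, 1.15, 1.60 and 1.62 in cotyledon and 4.20, 3.12, 4.46 and 2.86 in petal callus, a petal minus cotyledon difference of 2.59 ± 0.47 (SE, limma adjusted p = 0.00122). AT2G44370 followed, with -2.60, -2.94, -2.53 and -3.19 in root, 0.48, -0.38, 1.82 and 2.14 in cotyledon and 3.95, 3.36, 3.58 and 3.15 in petal callus and a difference of 2.49 ± 0.47 (SE, limma adjusted p = 0.00144). In both, every petal array was above every cotyledon array, and 1 cotyledon array lay below 0. JAL22 was higher in petal by 2.15 ± 0.44 (SE, limma adjusted p = 0.00261), the third largest difference.

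Of the members with a symbol, 7 were higher in petal callus and the other 9 did not pass. Besides JAL22 these were GSTU22 by 1.93 ± 0.39 (SE, limma adjusted p = 0.00227), JAL34 by 1.35 ± 0.27 (0.00223), BAT1 by 1.09 ± 0.20 (0.00117), ATPMEPCRB by 0.86 ± 0.20 (0.00481), MSRB9 by 0.86 ± 0.21 (0.00615) and JAL31 by 1.53 ± 0.51 (0.0281). All 3 lectins with a symbol were thus among them, where 30.8% of all genes were higher in petal. Members known here only by locus were not sorted by family, so this count may miss lectins. The JAL31 call was lost without cotyledon replicate 3 (1.42, limma adjusted p = 0.0725) or 4 (1.35, 0.0799) and without petal replicate 1 (0.99, 0.055) or 2 (1.42, 0.0781). It was also lost with limited ratios kept (0.0594) and without the root arrays (0.0673), and adjusted p lay between 0.00358 and 0.0916 across the alternatives. The 59 members that did not pass are not shown to be alike in the 2 organs: the standard error of the difference had a median of 0.31 and reached 1.18.

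AT4G24780 was the one member lower in petal, with a difference of -1.29 ± 0.47 (SE, limma adjusted p = 0.0438). Its petal arrays were tight, at 2.31, 2.21, 2.24 and 2.23, and its cotyledon arrays wide, at 5.02, 2.07, 4.36 and 2.68. With the replicate number as a block, limma's adjusted p was 0.0688 and no member passed as lower in petal. The call was lost under 13 of 21 alternatives, 7 of them without single arrays (root replicate 1 or 3, cotyledon replicate 1, 3 or 4, petal replicate 1 or 3), with a difference of -0.94 and an adjusted p of 0.125 without cotyledon replicate 1. AT2G18980 was higher in petal by 0.67 ± 0.20 (limma adjusted p = 0.0184), a call lost without cotyledon replicate 3 (0.55, 0.059), petal replicate 1 (0.55, 0.0581) or petal replicate 2 (0.60, 0.0604), in a range from 0.00838 to 0.0932. The other 11 members past the test lay between 1.01 ± 0.17 and 1.90 with 2 exceptions below, AT3G58210 at 0.95 ± 0.24 and AT5G47950 at 0.97 ± 0.30 (n = 3 in cotyledon, replicate 4 at the lower limit). Largest among them was AT3G26470 at 1.90 ± 0.25 (SE, limma adjusted p = 0.000174).

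**Figure D5:**
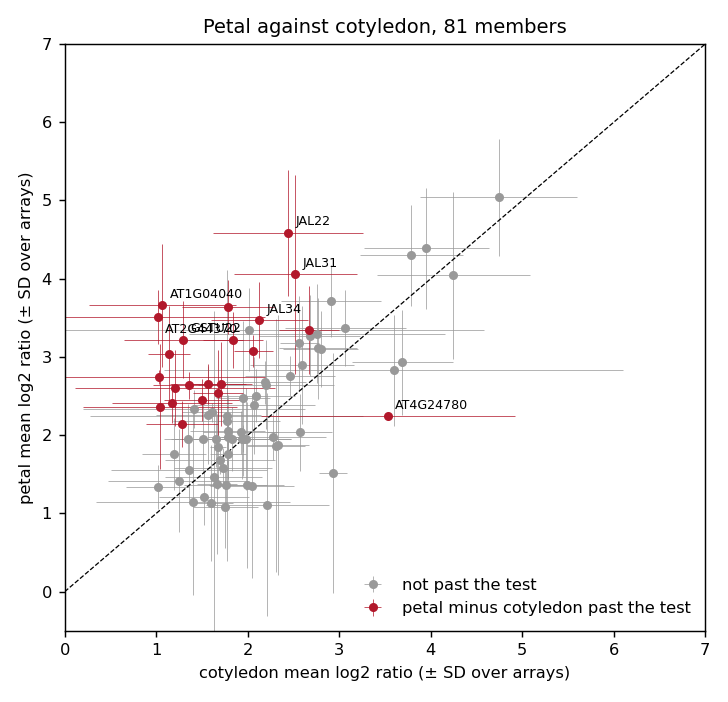
Mean log2 ratio in petal (y axis) against cotyledon (x axis) for the 81 members, with lines of ± SD over arrays, the 22 members past the test of the difference in red and the dashed line where both are equal. The 21 red points above the line are higher in petal, and AT4G24780 is the red point below it.

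The dye orientation was not used by the choice of members. Of 81 members, 2 passed the test of the dye term, or 2.47%, beside 3.62% of all genes (2.03% higher and 1.59% lower with callus in Cy5). AT2G05510 gave -0.76, -1.99, -1.12 and -2.52 in root and 2.92, 1.60, 2.29 and 1.49 in cotyledon callus, with petal replicates 1 and 3 (callus in Cy5) at 3.07 and 2.69 and a Cy3 mean of 1.88. It was higher with callus in Cy5 by 1.12 ± 0.16 (SE, limma adjusted p = 0.0104) and so in each organ. AT3G44940 gave -1.79, -0.39, -1.35 and -0.77 in root, 0.99, 1.98, 1.35 and 1.70 in cotyledon and 2.06, 2.36, 1.33 and 2.09 in petal callus, with a Cy5 minus Cy3 estimate of -0.73 ± 0.17 (SE, limma adjusted p = 0.0432). The AT3G44940 call was lost without any one of 11 arrays (all but petal replicate 1), with adjusted p up to 0.109, and the AT2G05510 call held without each single array but was lost with arrays centred on all values (0.85, 0.129).

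Below the threshold, members shared a dye direction. Ratios were higher with callus in Cy5 in 63 members in root (77.8%), 60 in cotyledon (74.1%) and 62 in petal (76.5%), beside 46.3%, 43.2% and 45.3% of all genes. The median Cy5 minus Cy3 difference of members was 0.32, 0.31 and 0.37 in these organs, against -0.04, -0.06 and -0.05 over all genes. BGLU21 had the estimate 2.45 ± 0.60 (limma adjusted p = 0.0589). The part of the dye in the members' ratios was not tested further.

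Lists of root, vascular, leaf and petal genes gave little on these members. Of 90 genes in 8 lists (root hairs, endodermis and suberin, ion uptake, aquaporins, xylem, phenylpropanoid synthesis, leaf photosynthesis, petal identity), 10 had a probe that the platform table names. None of them is a member, and 4 lists had no tested gene. All 6 tested photosynthesis genes fell in each organ, with medians of -2.08 in root, -3.34 in cotyledon and -3.51 in petal. Over all genes, 23.0%, 30.3% and 33.4% were lower by the same limma test, and 62.8%, 71.0% and 78.6% changed either way. In cotyledon all 6 fell further with callus in Cy3. LHCB1.5 cotyledon arrays were at -0.92 and -1.16 with callus in Cy5 and at -5.33 and -5.50 with callus in Cy3. PSBY cotyledon replicate 3 was at 0.14. The root hair expansin EXPA7 (AT1G12560) rose in cotyledon to 1.75 ± 0.39 (limma adjusted p = 3.6e-05) and in petal to 1.72 ± 0.26 (3.11e-05), beside 40.7% and 45.2% of all genes higher, and was at -0.25 ± 0.68 in root (0.358). EXPA18 and the petal gene RBE did not pass in any organ, but with the replicate number as a block RBE passed in cotyledon at 1.31 (limma adjusted p = 0.0436, against 0.115). HCT (AT5G48930), of monolignol synthesis, fell in cotyledon to -2.63 ± 0.13 and in petal to -1.20 ± 0.53 (limma adjusted p = 1.75e-07 and 2.79e-05). In root HCT was at 0.49 ± 0.18 (limma adjusted p = 0.0173, with 39.9% of all genes higher), a call lost without root replicate 2 (0.41, 0.0832), 3 (0.46, 0.0622) or 4 (0.45, 0.0662). A ratio gives no level in the explant, so these lists cannot show that an explant was the organ on its label.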

How the data were processed

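The authors deposited 1 table of log2 ratios for 12 arrays. How images were read, corrected for background, centred or scaled is not stated in the labels. The unit follows from the numbers themselves, which stop at ±6.64 (100-fold). Signal over background was not analysed here. Values of 6.64 or more in size were set to missing, probes of a gene were averaged (13960 probes had 1 gene, of which 13912 were matched to RefSeq by gene ID, 42 by locus tag and 6 not), and genes with 3 or more measured arrays in each organ were kept. No array pair held identical values.

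The members and lists were chosen with earlier results of these data known. Plain means over arrays chose the members. limma 3.58.1 in R 4.3.3 (lmFit, eBayes, 2-sided, Benjamini-Hochberg over 9694 genes, threshold 0.05) fitted 1 coefficient per organ and a dye term over all 12 arrays. It was tested on data simulated without a dye effect and with independent errors. Such data differ from the dye-split ratios seen here, and no result of that test is given. Deviations from organ means of same-numbered cotyledon and petal arrays correlated at 0.18 to 0.29. Arrays of the same dye and another number were at 0.18 to 0.22. These ranges overlap, so pairing by number is not shown, and the main fit left the number out. Same-numbered pairs with root reached from -0.02 to 0.30. The fit with the number as a block is given where it changes a call. Members were named by a rule that took the 12 members with the largest gap, members with a symbol, the largest petal minus cotyledon differences past the test (3 in each direction, of which 1 existed below 0), members past the dye test and those at the thresholds. A few further members were chosen after their values were seen (those with a synonym, neighbouring pairs, and those with overlapping or limited arrays). Alternatives changed centring, filters, limits, dye term, samples and thresholds. No genome coordinates are given, since the labels name no build for the probes, and promoter sequence was not analysed here.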

Additional observations from a re-analysis of the deposited data

Results flagged for a closer look

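In 100 groups of 4 arrays, from the 34 members named by rule, 6 groups had 1 array far from the other 3 by Dixon's test, and chance gives about 1 in 20. They were PUB23 in cotyledon (1.84, below the others), PRN in petal (0.44, below), AT4G24780 in root (-2.99, below), BGLU24 in root (-0.93, above), AT5G35940 in cotyledon (5.50, above) and AT5G38940 in root (-0.31, above).

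The change from explant to callus differed between petal and cotyledon by the limma test of the difference in 11 of these members. The naming rule took in the largest differences past this same test, so the count is partly set by it. Over all genes tested, 49.5% passed. The petal minus cotyledon differences were 2.59 for AT1G04040, 2.49 for AT2G44370, 2.15 for JAL22, 1.93 for GSTU22, 1.53 for JAL31, 1.35 for JAL34, 1.09 for BAT1, 0.86 for ATPMEPCRB, 0.86 for MSRB9, 0.67 for AT2G18980 and -1.29 for AT4G24780.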

How the results depend on the processing

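The rule gave 81 genes and from 77 to 91 without single arrays, 105 after centring each array on all its values (all 81 among them), 82 with centring on tested genes (70 shared) and 51 with a stricter threshold, and 115 with a looser one. Callus in Cy5 arrays alone gave 75 genes (58 shared) and callus in Cy3 arrays alone 90 (67 shared). Members higher in petal than in cotyledon numbered 21, from 16 to 24 without single arrays and from 17 to 23 under the other alternatives. Of the 22 differences called, 16 passed under all 21 alternatives and none reversed. The other 6 were JAL31, AT2G18980, AT4G24780, AT3G44510 (1.40, lost without petal replicate 1, 2 or 4, adjusted p from 0.011 to 0.0832, and 0.92 without cotyledon replicate 4), AT5G06570 (1.32, lost without root replicate 1 or 4, cotyledon replicate 1 or 2 or petal replicate 2, 3 or 4, adjusted p from 0.00575 to 0.113) and AT5G47950 (0.97, lost without cotyledon replicate 1 or 2 or petal replicate 2 or 3, adjusted p from 0.00117 to 0.208, and 2.98 with limited ratios kept). The cause was not tested.

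Members lower in petal numbered 1, and from 0 to 4 without single arrays. The number was 0 with centring on all values, limited ratios kept, no dye term, cotyledon and petal fitted without root, and the replicate block. Members past the dye test numbered 2, from 1 to 2 without single arrays, 5 with limited ratios kept, 0 with centring on all values, 0 with any organ fitted alone, 0 with cotyledon and petal fitted without root, and 1 without petal replicate 2 and root replicate 1, an alternative chosen after seeing the data because these arrays hold the most limited ratios of their organs. In the lists, genes higher in root numbered 1, with 0 under either centring and 0 to 1 without single arrays. Genes higher in cotyledon numbered 1, from 1 to 2 without single arrays, and 2 with centring on all values, the replicate block, cotyledon fitted alone and without petal replicate 2 and root replicate 1. Under the last alternative EXPA7 in root was at 0.0041 (adjusted p = 0.989) in place of -0.25, and it ran from -0.4684 to -0.0116 without single arrays.

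With the replicate block, 23 members were higher and 0 lower in petal than in cotyledon. Of the 22 differences called it ended only that of AT4G24780, and in the lists it changed only RBE in cotyledon.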

Other observations

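Some probes that the platform table does not name met the same thresholds. Of 8283 unnamed probes measured on 3 or more arrays per organ, 85 had a mean of -1 or less in root and 1 or more in cotyledon and petal. Among named genes, whose probes were averaged, 84 of 9694 did so. Several unnamed probes may share a gene, so these counts differ in unit. On the chromosome, 62 tested genes lay directly beside a member without being members themselves. Their medians were 0.03 in root, 0.23 in cotyledon and 0.29 in petal, beside 0.18, 0.13 and 0.18 over all genes tested. Leaving out members removes the neighbours that share the pattern, so these medians cannot show how often neighbours share it.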
